A study of Mus musculus with 6 samples.

Results

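Open chromatin at 6 regulators of the trophoblast lineage, Cdx2, Eomes, Elf5, Tead4, Tfap2c and Gata3, was read from the ATAC-seq peak list of untreated mouse embryonic stem cells (mESCs). ATAC-seq uses the Tn5 transposase, which cuts and tags accessible DNA. The 6 genes were taken by name out of 21774 protein-coding genes with an annotated transcription start site (TSS). For each gene, the peaks within 1 kb of a RefSeq TSS (here called promoter peaks) and the peaks in the gene span plus 50 kb on each side (the window) were collected. The windows held 49 of the 41014 listed peaks.

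The series holds 6 ATAC-seq libraries in 3 groups of 2: untreated mESCs of the V6.5 line, and mESCs with a ZBTB21 degron after 0 h or 6 h with IAA. V6.5 is a hybrid mouse ES cell line. Per the labels it was grown on irradiated mouse embryonic fibroblasts with serum and LIF, and the study's methods add the inhibitors CHIR99021 and PD0325901. IAA is the auxin that triggers loss of the tagged ZBTB21 protein, and the degron libraries were not analysed here. The treatment field is the same for all 6 libraries and speaks of degron cells and doxycycline, whereas the source of the untreated libraries is given as V6.5. Both untreated libraries share 1 peak list without values per replicate, so no spread between replicates, depth per library or test between samples is available, and every value below is a description of this list.

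The trophoblast is the outer layer of the blastocyst, which forms the placenta, and it separates from the inner cell mass, the source of ES cells, as the first lineage choice of the mouse embryo. Tead4 acts at the top of this choice: it binds DNA and recruits the Hippo pathway effector Yap in outer cells. Cdx2, a caudal-type homeobox factor, and Gata3, a zinc finger factor, are known targets of Tead4. Eomes, a T-box factor, Elf5, an ETS factor, and Tfap2c, the AP-2γ factor, maintain trophoblast stem cells together with Cdx2, and Tfap2c is also present in ES cells and germ cells. In ES cells the Elf5 promoter is known to be methylated.

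A promoter peak was listed for 2 of the 6 regulators, Tfap2c and Gata3, and for none of Cdx2, Eomes, Elf5 and Tead4. Among all protein-coding genes, 6510 of 21774 (29.9%) had a promoter peak, so the regulators' share of 33.3% was close to the background. Against curated transcripts only, 1 regulator (Gata3) had a promoter peak, and the background was 5991 of 21000 genes (28.5%). All 6 windows held peaks, as did those of 81.9% of all genes. A peak lay within the span of all RefSeq transcripts at 5 regulators, Eomes being the exception, against 49.6% of all genes. At Tfap2c and Gata3 this peak was also counted as a promoter peak. It lay upstream of the curated TSS there, inside the span only through predicted transcripts. The spans differed in length, from 6.35 kb at Cdx2 to 73.7 kb at Tead4. A missing peak says only that the list names none there, because most promoters in the genome are also without a listed peak.

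The numbers of peaks differed among the regulators. The Tead4 window held 12 peaks, that of Cdx2 11, Tfap2c 8, Elf5 7, Eomes 6 and Gata3 5, where the median over all protein-coding genes was 4. Because the genes differ in length, peaks were also counted in the 100 kb centered on the TSS, where the median gene had 3. By this count Cdx2 had 11 peaks, a number that 1.44% of genes reach, and Tead4 had 10, which 2.83% reach. Eomes, Elf5 and Tfap2c had 6 each, and Gata3 had 3, which 50.6% of genes reach. Cdx2 and Tead4 thus stood beyond the 95th percentile of 8 peaks, and Gata3 stood at the median.

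**Figure D1:**
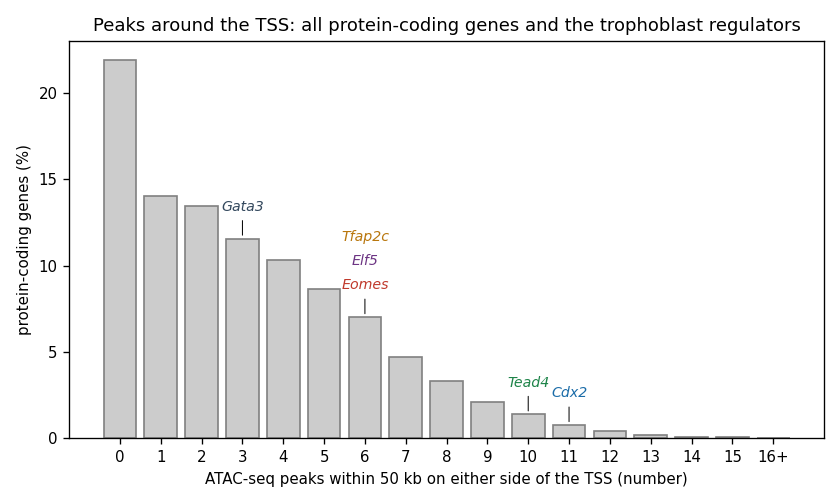
Bars give the share of all 21774 protein-coding genes (vertical axis, %) by the number of ATAC-seq peaks in the 100 kb centered on the TSS (horizontal axis), and labels mark the trophoblast regulators. Cdx2 (11 peaks) and Tead4 (10 peaks) sit in the right tail, and Gata3 (3 peaks) sits at the median.

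The list gives each peak a score, a whole number from 540 to 953 with a median of 696. The lowest value is that which the IDR software, a test of how well peaks repeat between replicates, writes for a peak at the study's ChIP-seq threshold, but no source used here states how this list was scored. Scores are therefore used as ranks in the list and not as signal heights. Over the 49 peaks, the score ranged from 547 to 849 with a median of 681, and 19 peaks stood above the list median. Of these, 6 lay at Tead4, 4 at Gata3, 3 at Cdx2, 3 at Tfap2c, 2 at Elf5 and 1 at Eomes, so the order of the genes by number of peaks changed when the lower-scored peaks were left out. The median width of the 49 was 564 bp, against 547 bp in the list. In score and in width the peaks of the regulators thus lay near the middle of the list as a whole.

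**Figure D2:**
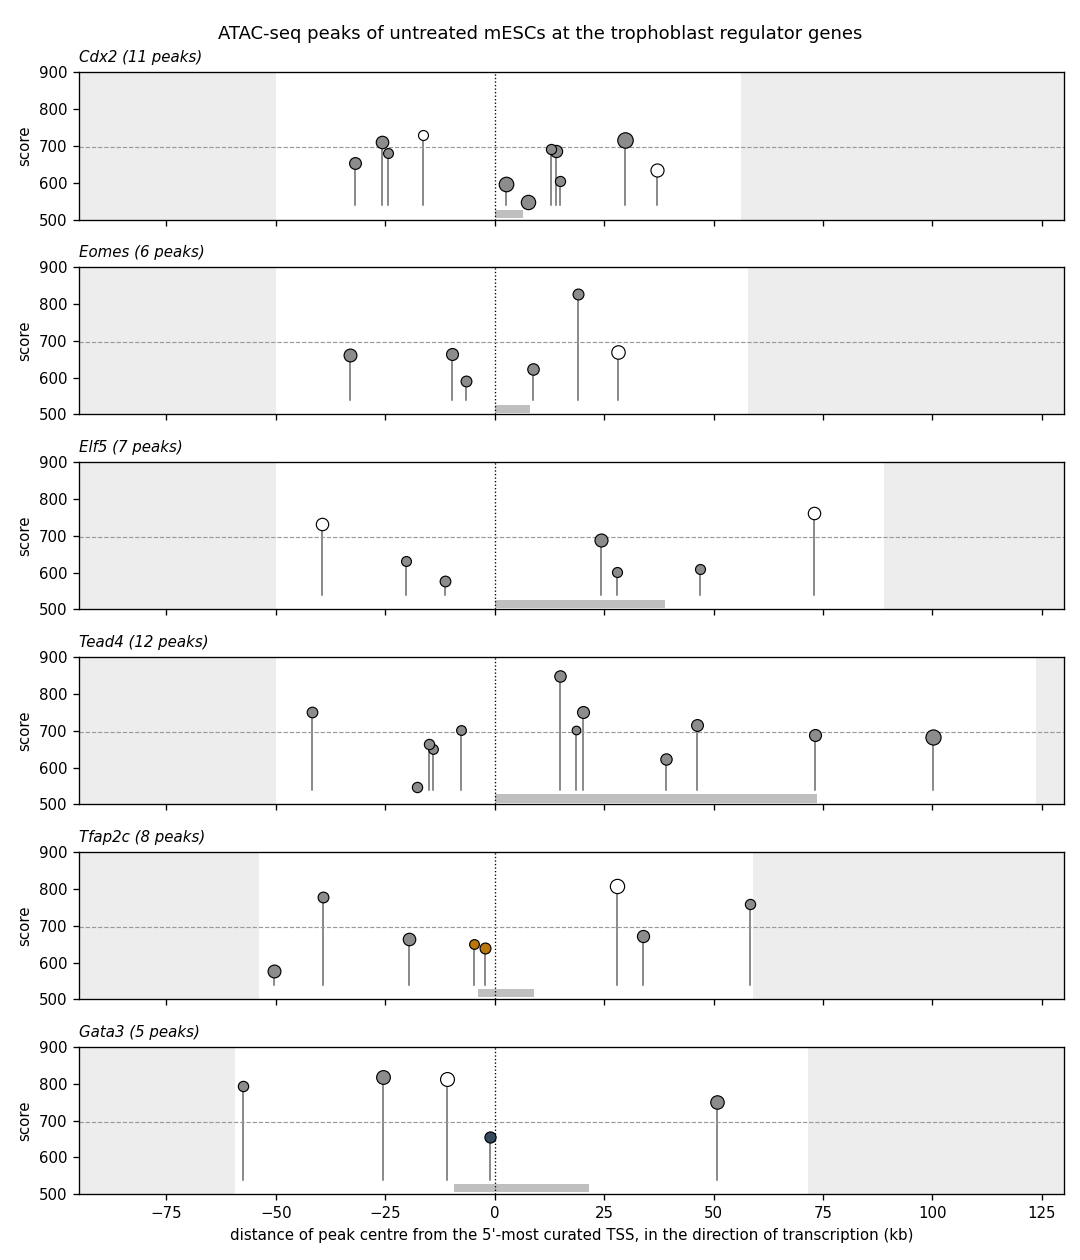
Each panel shows the ATAC-seq peaks (points) of a regulator's window by distance of the peak centre from the 5′-most curated TSS in the direction of transcription (horizontal axis, kb) and by score in the deposited list (vertical axis). Filled colored points are promoter peaks of the regulator (2 at Tfap2c and 1 at Gata3), white points lie at the promoter of a neighbour, grey points are the other peaks, point size grows with peak width, grey bars are gene spans, the shaded ends lie outside the window, and the dashed line is the list's median score of 696.

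Tead4 (chr6:128227143-128300813, minus strand, GRCm38, the assembly that mm10 names) had no peak within 1 kb of its only TSS, and its nearest peak ended 7467 bp upstream. Within the gene lay 6 peaks, the most of any of the regulators, of which 5 were intronic and 1 lay at the 3′ untranslated end. The highest-scored peak of all 49, with a score of 849 and a width of 557 bp, was an intronic peak at chr6:128285724-128286280, 14.8 kb into the gene, and its score exceeded that of 94.8% of the list. The narrowest of the 49, at 191 bp, lay further downstream in the same gene, 18.5 kb from the TSS, with a score of 701. Upstream of Tead4 lay 5 peaks between 7.63 and 41.8 kb from the TSS, the farthest of them in an intron of the neighbour Tulp3. No peak in this window lay at the promoter of another gene, and 10 of the 12 were nearer to the Tead4 TSS than to any other protein-coding TSS.

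The central 300 bases of the intronic Tead4 peak are shown because the peak has the highest score of the set (chr6:128285853-128286152, minus strand, GRCm38, 5′ to 3′). Capitals mark a match to the GATA motif AGATAA, at bases 97 to 102, and a match to the TEAD motif GGAATG, at bases 213 to 218, both of which read on the opposite strand.
Tead4 intron: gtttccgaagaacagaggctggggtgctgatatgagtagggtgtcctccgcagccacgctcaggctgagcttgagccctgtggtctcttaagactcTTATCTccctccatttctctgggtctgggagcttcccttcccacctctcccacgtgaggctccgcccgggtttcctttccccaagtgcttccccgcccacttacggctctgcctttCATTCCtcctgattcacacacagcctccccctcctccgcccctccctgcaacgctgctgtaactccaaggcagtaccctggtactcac

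Cdx2 (chr5:147300900-147307249, minus strand) also lacked a promoter peak, but its nearest peak lay only 1974 bp from the TSS, in an intron. This peak (chr5:147304192-147305275) was broad, at 1084 bp wider than 95.6% of the list, and had a low score of 596. Cdx2 stands between Pdx1, the regulator of pancreas development, and Urad, an enzyme gene of urate breakdown, and 6 of its 11 peaks lay nearer to the TSS of these neighbours than to that of Cdx2. Downstream, 3 peaks lay 12.9 to 14.9 kb from the TSS within the long non-coding RNA gene Gm35112, with scores of 605, 687 and 692. Farther downstream, an 816-bp peak with a score of 635 lay within 1 kb of a TSS of Pdx1 and of the non-coding gene Plut. Upstream, 3 peaks with scores of 681, 711 and 653 lay in Flt3, a receptor tyrosine kinase gene of blood progenitors. The highest-scored peak of the window, at 730, was the 354-bp peak at chr5:147323409-147323762, 16.3 kb upstream of Cdx2 and within 1 kb of the Urad TSS.

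Its central 300 bases are shown as the highest-scored sequence at Cdx2 (chr5:147323436-147323735, minus strand, GRCm38, 5′ to 3′). Capitals mark a match to CAGNNGGCG, the core of the motif of the insulator protein CTCF, at bases 38 to 46. This motif was added after these sequences had been seen.
Cdx2 upstream: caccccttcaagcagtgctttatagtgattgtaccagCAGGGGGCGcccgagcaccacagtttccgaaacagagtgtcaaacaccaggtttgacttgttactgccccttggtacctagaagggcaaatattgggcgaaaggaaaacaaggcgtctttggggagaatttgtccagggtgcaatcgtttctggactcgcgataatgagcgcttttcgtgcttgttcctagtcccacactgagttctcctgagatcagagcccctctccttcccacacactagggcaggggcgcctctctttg

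Gata3 (chr2:9857078-9887953, minus strand) had 1 promoter peak, a 517-bp peak at chr2:9879371-9879887 with a score of 657. It began 771 bp upstream of the TSS that all 4 curated transcripts share (9878600), and a predicted transcript with a TSS farther upstream makes the same place an intron. The peak is thus near the 1 kb limit: it lay 997 bp from a predicted TSS at 9878374 and 1050 bp from a further one at 9878321. Just outside the limit, 1174 bp from the most upstream predicted TSS (9887953), lay a 961-bp peak with a score of 813 at the promoter of the non-coding gene 9230102O04Rik. The highest score at Gata3 was 819, at the 936-bp intergenic peak chr2:9903710-9904645, 25.6 kb upstream of the curated TSS. Gata3 had the fewest peaks but the highest median score of the regulators, 794, and 4 of its 5 peaks stood above the list median, its promoter peak being the exception.

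The central 300 bases of the Gata3 promoter peak are shown as the only sequence at a curated promoter among the regulators (chr2:9879480-9879779, minus strand, GRCm38, 5′ to 3′). They hold 19 CpG and have a GC content of 63.0%, and none of the motifs searched is in them, so no letters are in capitals.
Gata3 promoter: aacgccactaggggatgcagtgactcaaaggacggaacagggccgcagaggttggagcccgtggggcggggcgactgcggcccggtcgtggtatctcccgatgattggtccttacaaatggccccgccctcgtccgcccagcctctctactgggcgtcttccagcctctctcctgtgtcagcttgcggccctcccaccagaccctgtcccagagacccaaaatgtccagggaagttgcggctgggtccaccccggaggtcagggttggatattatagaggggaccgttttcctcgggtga

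Tfap2c (chr2:172545678-172558622, plus strand) had 2 promoter peaks, and both were assigned through predicted transcripts. The first (325 bp, score 651) lay upstream of the most upstream predicted TSS. The second (chr2:172547021-172547503, 483 bp, score 639) contained the predicted TSS at 172547336 and overlapped a coding exon of a predicted transcript. The curated TSS at 172549593 lay 2090 bp from the second peak and had no peak within 1 kb. The highest score in the window was 808, at chr2:172576917-172577948, a 1032-bp peak 27.8 kb downstream of the curated TSS and at the promoter of the non-coding gene Gm36038. A further 5 peaks, with scores from 577 to 777, lay on both sides of the gene, and 7 of the 8 were nearest to Tfap2c among protein-coding genes.

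The 3 promoter peaks of Gata3 and Tfap2c ranked low among promoter peaks. Their scores of 657, 651 and 639 were all below the list median of 696 and below the median of 735 over the 6598 promoter peaks of protein-coding genes. They exceeded 28.5, 27.0 and 24.1% of the promoter peaks in score. In width, at 517, 325 and 483 bp, they exceeded 16.6, 2.59 and 13.3% of them, where the median promoter peak was 737 bp wide. When only peaks above the list's median score were kept, no regulator had a promoter peak, while 19.4% of all genes had one.

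**Figure D3:**
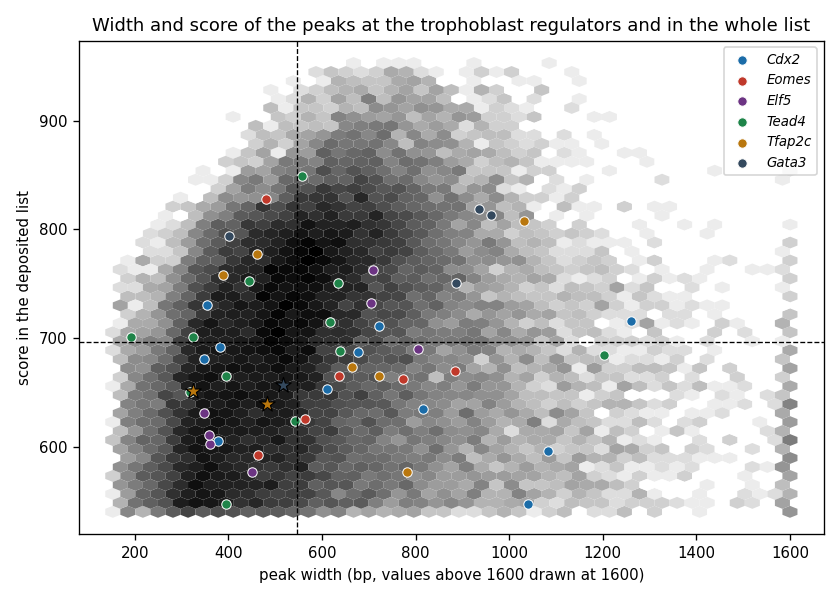
Peak width (horizontal axis, bp) against score (vertical axis) for the 49 peaks in the windows of the trophoblast regulators (colored points, stars for promoter peaks) over all 41014 listed peaks (grey, darker where more peaks lie, on a log scale). Dashed lines mark the list medians of 547 bp and 696, and the 3 stars lie below the median in both.

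Eomes (chr9:118478186-118486132, plus strand) had no peak in the gene, and the nearest peak ended 6408 bp upstream of its first TSS. Most of the surrounding peaks lay in non-coding genes: 3 upstream peaks, 6.64 to 33.0 kb from the curated TSS, overlapped Gm33408 or the pair Gm33285 and Platr11, and the peak just beyond the 3′ end overlapped Gm33460. Their scores ran from 592 to 665. An 885-bp peak with a score of 670 lay at the promoter of the neighbour Golga4, which codes for a Golgi protein. The remaining peak, at chr9:118496855-118497334, was intergenic, 18.9 kb downstream of the TSS, 480 bp wide and scored 828, above 91.8% of the list. At Eomes this peak was thus the only one above the list's median score.

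The central 300 bases of this Eomes peak are shown as the highest-scored sequence at Eomes (chr9:118496945-118497244, plus strand, GRCm38, 5′ to 3′). Capitals mark a match to the ETS motif AGGAAG at bases 234 to 239 and to the TEAD motif GGAATG at bases 239 to 244, which share base 239. The sequence holds 1 CpG.
Eomes downstream: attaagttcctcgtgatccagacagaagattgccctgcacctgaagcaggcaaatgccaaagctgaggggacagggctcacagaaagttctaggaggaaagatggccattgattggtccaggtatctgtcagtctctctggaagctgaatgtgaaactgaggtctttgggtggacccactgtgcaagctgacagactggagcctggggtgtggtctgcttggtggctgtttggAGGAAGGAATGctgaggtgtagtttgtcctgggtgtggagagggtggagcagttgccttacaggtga

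Elf5 (chr2:103412098-103450989, plus strand) had the nearest peak farthest from a TSS, at 11043 bp, a distance at which 54.3% of all genes have a peak. Within the gene lay 2 intronic peaks, 24.3 and 27.9 kb downstream of the 5′-most TSS, with scores of 690 and 602. The highest score, 763, was that of a 708-bp peak at chr2:103484711-103485418, which lay at the promoter of Cat, the gene of the peroxide-degrading enzyme catalase. The second highest, 732, lay at the promoter of the non-coding gene A930006I01Rik. The other 5 peaks, in and around Elf5 and in an intron of Cat, had scores of 577 to 690. At Elf5, therefore, both peaks above the list's median score lay at promoters of neighbours.

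By place, 20 of the 49 peaks were intronic, 15 intergenic, 9 in non-coding or untranslated exons and 5 in coding exons. Upstream of the regulators lay 22 peaks, within them 11 and downstream 16. At the promoter of the regulator lay 3, and 7 lay at promoters of other genes, non-coding ones included. In the whole list, 6598 of 41014 peaks lay at promoters of protein-coding genes. For the other places, no share over the whole list is given here. The regulator had the nearest protein-coding TSS for 36 of the 49.

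The sequence around the TSS differed among the regulators. In the 500 bp on either side of the 5′-most curated TSS, the ratio of observed to expected CpG was 0.753 at Tead4, 0.689 at Tfap2c, 0.649 at Cdx2, 0.638 at Gata3, 0.587 at Eomes and 0.154 at Elf5. The median over all genes was 0.578. With a minimum of 0.6 for this ratio and of 50% for the GC content, 4 of the 6 promoters counted as CpG-rich. Among all protein-coding genes, 10142 of 21774 did. Eomes was just below the limit for the ratio. Elf5 lay far below it, with a ratio above that of only 14.7% of genes. Of CpG-rich promoters in the genome 39.6% had a listed peak, and of the others 21.5%. Among the regulators, Tfap2c and Gata3 of the 4 CpG-rich ones had a promoter peak, and neither Eomes nor Elf5 did, although at Tfap2c the peaks lay at other TSSs than the one whose sequence was measured. The 49 peaks themselves had a median GC content of 52.4% and a median CpG ratio of 0.279, against 52.1% and 0.248 in the list.

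**Figure D4:**
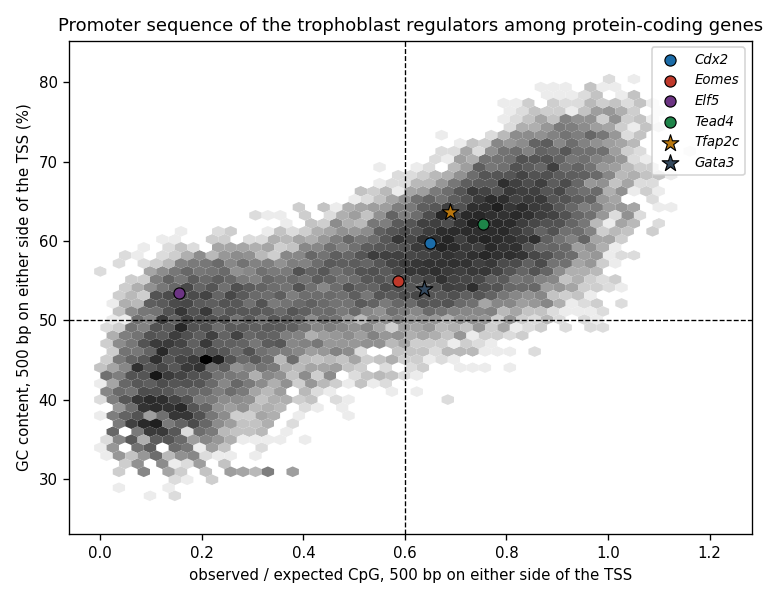
Observed over expected CpG (horizontal axis) against GC content (vertical axis, %) in the 500 bp on either side of the TSS, for the regulators (colored, stars for those with a promoter peak) over all protein-coding genes (grey, darker where more genes lie). Dashed lines are the limits for a CpG-rich promoter, 0.6 and 50%, and Elf5 stands apart from the other regulators at 0.154.

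Short motifs of the factor families that the regulators belong to, and of POU factors and CTCF, were searched in the central 300 bases of each peak. Both strands were read. The TEAD motif GGAATG was in 7 of the 49 peaks (14.3%), against 20.8% of all listed peaks. The ETS motif AGGAAG, bound by Elf5 and many other ETS factors, was in 22 peaks (44.9%), against 40.3% of the list. The AP-2 motif GCCNNNGGC was in 7 peaks (14.3%, list 12.7%), and the GATA motif AGATAA in 5 (10.2%, list 9.28%). The CDX motif CCATAAA and the T-box motif AGGTGTGA were in 0 of the 49 peaks, and both are rare in the list, at 2.17 and 1.75%. ATTTGCAT, the octamer bound by POU factors such as the pluripotency factor Oct4, was in 2 peaks (4.08%, list 2.85%), upstream of Cdx2 and of Tead4. The CTCF core CAGNNGGCG was in 5 peaks (10.2%, list 6.83%), at Cdx2, Eomes and Elf5. It was added after the printed sequences had been seen, and the printed Cdx2 peak is among the 5. A match is a run of letters and not a binding site, and matches of different motifs may overlap, as the ETS and TEAD letters do at Eomes. With 49 peaks from 6 loci, these shares are counts for these windows, and no difference from the list was tested.

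ZBTB21, the factor that the study depleted, had no ChIP-seq peak of mESCs in the window of any of the 6 regulators, and 0 of the 49 peaks overlapped one. Over the whole list only 814 of 41014 peaks (1.98%) did, so a count of 0 among 49 is near the background. Among all genes, 21.9% had a ZBTB21 peak in the window. From the nearest TSS of each regulator, the closest of the study's 1827 ZBTB21 peaks lay 336 kb from Elf5, 443 kb from Eomes, 454 kb from Cdx2, 887 kb from Tfap2c, 934 kb from Tead4 and 3620 kb from Gata3. The median distance over all genes was 297000 bp, so each regulator lay farther from ZBTB21 than the median gene. At Eomes, the distant ZBTB21 peak coincided with a listed ATAC-seq peak. At the other 5 regulators it did not.

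The study also lists 500 chromatin loops as ZBTB21-responsive and 500 as less responsive, chosen among loops longer than 500 kb and ranked by signals summed at ATAC-seq peaks, so that the classes are not independent of the peak list. A responsive loop holds a ZBTB21 peak by definition. Of the regulators, 2 lay in a responsive loop, Cdx2 and Tfap2c, against 15.9% of all genes, and 0 lay in a less-responsive loop, against 6.24%. The loop around Cdx2 spanned 975 kb and held 46 ATAC-seq peaks, 1 ZBTB21 peak and 12 protein-coding genes, of which 5 had a promoter peak. Cdx2 itself lay between its anchors. The loop at Tfap2c spanned 2400 kb and held 66 ATAC-seq peaks, 1 ZBTB21 peak and 14 protein-coding genes, of which 6 had a promoter peak. Here the gene overlapped an anchor of 25 kb, and this anchor held 0 listed ATAC-seq peaks. When only anchors were counted, Tfap2c was the regulator left.

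Genes around the 6 regulators in the same pathways were counted in the same way, from lists chosen with earlier results of these data known. Of 14 genes of the Hippo pathway and its effectors, 5 had a promoter peak (35.7%). The highest scores were 938 at Nf2, the upstream activator Merlin, 729 at Amotl2, an angiomotin that holds Yap in the cytoplasm, and 686 at the kinase gene Stk4. The kinase genes Lats1 and Lats2 and their cofactor Mob1a had none. Of 15 genes of trophoblast stem cell maintenance, 6 had one (40.0%), with scores of 820 at Sall4, 805 at Tfap2a, the paralog of Tfap2c, and 787 at the receptor gene Notch1. Esrrb, Ets2 and Fgfr2, the FGF receptor of trophoblast stem cells, had none. Of 18 genes of trophoblast differentiation, 3 had one (16.7%): the syncytin gene Syna (710), the keratin gene Krt8 (645) and the spongiotrophoblast factor gene Ascl2 (597). Cdkn1c, Ctsq and Dlx3 had none. Against the background of 29.9%, the differentiation list held the smallest share of these 3 lists. Its median window held 3 peaks, against 4 over all genes. The medians were 7.5 for the regulators, 5.5 for the Hippo list and 5 for the maintenance list. These windows grow with gene length. In the 100 kb centered on the TSS, the median was 3 for the differentiation list, the same as over all genes. By this count it was 6 for the regulators, 4 for the Hippo list and 5 for the maintenance list. A peak lay in the window of 11 of the 18 differentiation genes, where 81.9% of all genes had one. In the differentiation list, Gcm1 and Dlx3 missed the 1 kb limit with peaks 1071 and 1352 bp from a TSS. Lats2 of the Hippo list, at 1139 bp, and Rbpj of the maintenance list, at 1272 bp, also missed it. The counts of these lists thus depend on the limit.

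**Figure D5:**
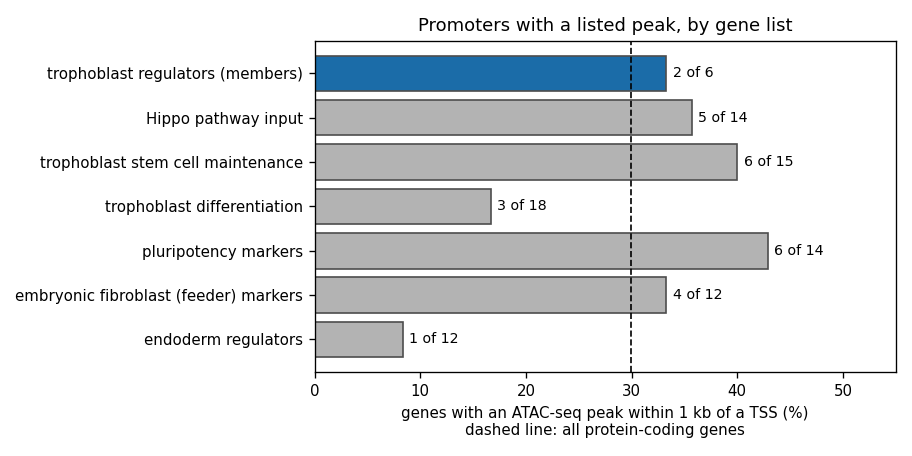
Bars give the share of genes with a promoter peak (horizontal axis, %) in each list, with the counts beside them, and the dashed line is the share of all protein-coding genes, 29.9%. The regulators (2 of 6, blue) lie close to the line, the pluripotency markers (6 of 14) above it and the endoderm regulators (1 of 12) below it.

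The labelled cell type was checked by marker genes. Of 14 pluripotency markers, 6 had a promoter peak (42.9%, against 29.9% of all genes), with scores of 909 at Tbx3, 892 at Zfp42, 861 at Pou5f1, 820 at Sall4, 805 at Nanog and 680 at Prdm14. The other 8, among them Sox2, Klf4 and Esrrb, had none, so that even genes that define these cells can lack a listed promoter peak. Outside the 1 kb limit, the nearest peak lay at 1046 bp for Tfcp2l1, 1448 bp for Dppa3 and 1529 bp for Utf1. It lay at 1569 bp for Esrrb, 2307 bp for Klf2, and 10004 to 31129 bp for Sox2, Tdgf1 and Klf4. The count of 6 thus depends on the limit. All 14 had peaks in the window, with a median of 8, close to the 7.5 of the trophoblast regulators. Of 12 markers of embryonic fibroblasts, the feeder cells, 4 had a promoter peak: Thy1 (829), Pdgfra (687), Vim (613) and Pdgfrb (602). This share of 33.3% is near the same background. The part that feeder cells have in the list was not tested. The lists share genes: Esrrb, Sox2 and Sall4 stand both in the pluripotency and in the maintenance list.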

How the data were processed

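ATAC-seq libraries were made from viable cells with a Tn5 library kit, per the labels. The submitters' processing notes name cutadapt 2.6, Bowtie2 2.3.5.1, MACS2 2.1.1 and deepTools, with mm10 among the builds. How these ATAC-seq peaks were called, and whether reads were shifted for the Tn5 cut, is not given in the sources used here. The authors deposited 1 BED list for both untreated libraries, with mm10 coordinates and a score for each peak. Peaks were joined to RefSeq genes of GRCm38 by overlap of at least 1 bp, and 0 peaks passed a chromosome end. The 14 peaks on unplaced sequences stay out of motif shares. ZBTB21 peaks and loops came from the study's own lists. All peaks within 1 kb of a TSS of a regulator and the highest-scored peak of each window were described singly, the rest by counts. From each related list, up to 3 genes with the highest promoter scores and up to 3 without were named, those without in alphabetical order. Gcm1 and Rbpj were named besides, for peaks just outside the 1 kb limit. Sequences are RefSeq, GRCm38. The sequence at the Tfap2c promoter is not reported here. The genes, lists and rules were chosen with earlier results of these data known. No test was possible. Python 3.11.15, pandas 2.3.3 and numpy 2.4.6 were used, and the overlap code was tested on simulated data.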

Additional observations from a re-analysis of the deposited data

How the results depend on the processing

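The count of regulators with a promoter peak depended on the definition. It was 2 at a distance of 1 kb, 1 at 500 bp (Tfap2c), 1 with curated transcripts only (Gata3) and 0 with peaks above the median score. At 2.5 and 5 kb it was 3, with Cdx2 added, and with peaks within 500 bp merged it was 2. The share of all protein-coding genes with such a peak moved with the same settings, from 29.9% to 27.9% at 500 bp, 34.9% at 2.5 kb, 41.0% at 5 kb, 28.5% with curated transcripts and 19.4% above the median score. The 49 peaks of the windows became 11 in the gene spans alone and 19 above the median score (Cdx2 from 11 to 3, Gata3 from 5 to 4), by construction of these settings, and were 36 and 70 with flanks of 25 and 100 kb. The count of regulators in a responsive loop fell from 2 to 1 with anchors only. ZBTB21 peaks in the windows and less-responsive loops stayed at 0 under every alternative run. No paired analysis was possible because the only list holds both untreated libraries together, and for the same reason no replicate could be left out. The depth behind the list is unknown here, so a peak that is missing from it may lie below what the libraries could show.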

Other observations

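Regulators of endoderm were counted beside those of the trophoblast. Of 12 genes, 1 had a promoter peak (8.33%, against 29.9% of all protein-coding genes), Pdgfra with a score of 687, which also stands in the fibroblast list. A peak lay in the window of 11 of the 12, where 81.9% of all genes had one, with a median of 2 peaks against 4 over all genes, and at most 9, at Hnf4a, a nuclear receptor gene. Cer1 had none. In a ZBTB21-responsive loop lay 6 of the 12, against 15.9% of all genes. The list is small and was chosen with earlier results known, so that these counts are a description, and the difference from the trophoblast regulators was not tested.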
